A study of Homo sapiens with 17 samples.

Results

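Messenger RNA of 10 ETS family transcription factors was measured in SW480 cells, a colon cancer line of human origin with a mutant form of p53 (mutp53). The members were a named list, ETS1, ETS2, ERG, ELF1, ELF3, ELF4, EHF, ELK3, ETV4 and ETV5, looked up by gene symbol among the 26457 RefSeq genes of the deposited expression table, and all 10 were found. They are 10 of the 28 human ETS genes, and the other 18 are described by counts. Control cells carried a doxycycline-inducible short hairpin RNA against LacZ and mutp53-depleted cells one against p53, and both were given 1 μg/ml doxycycline. Cells of each line were harvested untreated (0 h) or 16 h after addition of 12.5 ng/ml TNF-α, and each of the 4 groups had 2 biological replicates, A and B. Each hairpin was present in 1 stable line, so depletion of mutp53 and any other difference between the lines cannot be told apart. The study ran a de novo motif search under regions where mutp53 overlapped the NF-κB subunit p65 after TNF-α. Of these regions, those with mutp53 bound both before and after TNF-α had ETS motifs among the enriched ones. The study also assayed ETS2 at enhancers of CYP24A1 and CPA4 and reported similar enrichment before and after TNF-α. The mRNA values show which ETS genes these cells expressed in each state.

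ETS factors share a winged helix-turn-helix DNA-binding domain, the ETS domain, which recognizes a GGAA core. Several of them are phosphorylated by mitogen-activated protein (MAP) kinases and act at composite sites beside AP-1, RUNX or serum response factor. The family holds activators of protease and growth genes such as ETS1, factors largely restricted to epithelia such as ELF3 and EHF, and repressors such as ELK3.

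The libraries held from 6108488 to 13809578 reads on genes, and 1 read equalled between 0.67 and 1.515 of the authors' normalized reads. The colon epithelial markers KRT8, KRT18, KRT19, EPCAM, CDH1 and CDX2 were all measured, whereas the summed markers of leukocytes, endothelial cells and fibroblasts did not exceed 177 normalized reads in any library. Comparisons used limma on log2(normalized reads + 1) and covered the 14800 genes whose mean reached 2.5. Genes were called where the adjusted p (Benjamini-Hochberg) was under 0.05 and the change was 2-fold or more, and "rose" and "fell" are used below only for called genes. The added 1 brings the changes of weakly expressed genes closer to 0. Comparisons against the same 2 libraries of a group share those libraries and are not independent of each other.

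Start-site sequences show what could be read of these genes' promoters, and the 3 printed below belong to the pair of members whose TNF-α response differed between the lines, ELF3 and EHF, and to ETS2. RefSeq start sites in GRCh38.p14 were matched for 7 of the 10 members, with 17 start sites in all, and the 250 bases upstream of each were searched on both strands for GGAA, for the longer ETS consensus CCGGAAGT, for the AP-1 site TGANTCA and for the degenerate NF-κB consensus. Capitals mark GGAA, written TTCC where it lies on the other strand, and in ELF3 also the NF-κB match that overlaps it.
ELF3, chr1:202010337-202010586, plus strand: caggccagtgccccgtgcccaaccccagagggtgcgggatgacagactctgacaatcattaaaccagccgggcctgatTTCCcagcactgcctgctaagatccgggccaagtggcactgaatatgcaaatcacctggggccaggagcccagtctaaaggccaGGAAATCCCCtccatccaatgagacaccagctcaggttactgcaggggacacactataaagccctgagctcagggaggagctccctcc
EHF, chr11:34624007-34624256, plus strand: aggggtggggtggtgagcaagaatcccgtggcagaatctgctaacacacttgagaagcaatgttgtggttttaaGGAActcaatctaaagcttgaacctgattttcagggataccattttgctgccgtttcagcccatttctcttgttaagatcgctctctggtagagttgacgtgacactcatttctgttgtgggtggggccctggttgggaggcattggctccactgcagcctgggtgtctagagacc
ETS2, chr21:38805679-38805928, plus strand: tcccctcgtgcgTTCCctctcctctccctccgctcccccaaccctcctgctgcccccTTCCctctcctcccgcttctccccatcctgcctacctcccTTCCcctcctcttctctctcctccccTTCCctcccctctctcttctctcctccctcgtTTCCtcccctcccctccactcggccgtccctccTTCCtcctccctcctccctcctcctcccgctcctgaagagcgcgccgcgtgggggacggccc
The ELF3 window held 2 GGAA cores and 1 NF-κB match, which began 88 bases upstream of the start site. An NF-κB match was in 2 of the members' 17 windows, those of ELF3 and of 1 ERG start site, and in 9.95% of all 34788 promoter windows of this length. EHF and ETS2 each had 2 start sites, of which 1 is printed. The printed EHF window held 1 GGAA core and its other window 0. The printed ETS2 window held 6, a number reached by 9.14% of all windows, and its other window held 3, which was the median of all windows. CCGGAAGT was in 0 of the members' 17 windows and in 3.41% of all windows, and TGANTCA was in 1 of the 17, an ELF4 window, and in 6.59% of all. These matches describe letters in a short window and do not mark bound sites.

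All members but ERG were expressed, with mean values over the 8 libraries from 77.7 to 2779 normalized reads against a median of 246.7 for the genes tested. Levels of different genes were compared as normalized reads per kb of exon. ETV4 led the order in control cells at 0 h with 888 ± 8.64 per kb (mean ± SD, n = 2) and was followed by ETS2 at 421 ± 15.5, ETV5 at 388 ± 4.56, ETS1 at 202 ± 4.09, ELK3 at 202 ± 16.5, ELF1 at 176 ± 6.76, ELF4 at 144 ± 5.82, ELF3 at 47.1 ± 1.01 and EHF at 18.5 ± 0.116. ETS1 and ELK3 were the only neighbours in that order whose libraries overlapped. After TNF-α the leading gene in control cells was ETS1, with 780 ± 16.0 per kb, ahead of ETV4 with 569 ± 9.98. In mutp53-depleted cells ETV4 stayed first at both times, with 1349 ± 3.88 per kb at 0 h and 1028 ± 10.3 at 16 h, where ETS1 came next with 870 ± 30.7. At the low end, ELF3 and EHF came eighth and ninth and ERG last in all 4 groups.

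The summed level of all 28 ETS genes moved little with TNF-α, while its makeup changed. In control cells the sum was 3970 and 3981 per kb at 0 h and 3987 and 4004 at 16 h. In mutp53-depleted cells it was higher, at 4989 and 5047 at 0 h and 4857 and 4919 at 16 h, and the libraries of the lines did not overlap at either time. ETS1 made up 5.17% and 5.01% of the sum in control cells at 0 h and 19.8% and 19.2% at 16 h, whereas ETS2 went from 10.9% and 10.3% to 6.24% and 5.88%. In mutp53-depleted cells ETS1 went from 5.39% and 5.47% to 17.5% and 18.1% and ETS2 from 4.13% and 3.92% to 2.66% and 2.68%. The 10 members together gave 62.7% and 62.4% of the sum in untreated control cells and 70.4% in both treated mutp53-depleted libraries.

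**Figure D1:**
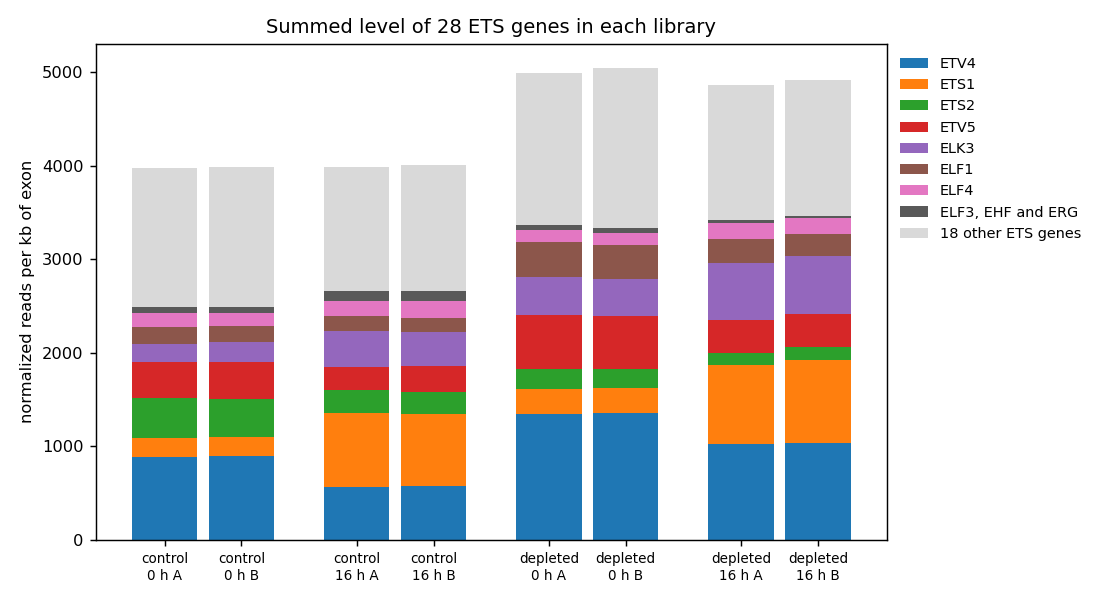
Stacked bars give the normalized reads per kb of exon of 28 ETS genes in each of the 8 libraries, with 7 members in colour, ELF3, EHF and ERG in dark grey and the other 18 genes in light grey. The bars of the control libraries end between 3970 and 4004 and those of the mutp53-depleted libraries between 4857 and 5047, and the ETS1 segment is larger in all 4 libraries at 16 h than in any at 0 h.

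ETS1, the founding member of the family and an activator of genes for matrix-degrading proteases, rose with TNF-α in both lines. The gene lies on the minus strand at chr11:128328656-128392205 (hg19, the build of the table), and its values are reads on the exons of NM_005238. In control cells ETS1 was at 1074 and 1044 normalized reads at 0 h and at 4139 and 4020 at 16 h. In mutp53-depleted cells it was at 1406 and 1444 at 0 h and at 4438 and 4665 at 16 h. Every library at 16 h was thus far above every library at 0 h, and at each time both mutp53-depleted libraries were above both control libraries. The response to TNF-α was a log2 change of 1.94 (standard error 0.07, limma adjusted p = 2.7e-13) in control cells and 1.67 (adjusted p = 4.2e-12) in mutp53-depleted cells, ratios of 3.85 and 3.19. The difference between these responses was −0.27 (adjusted p = 0.16). Depletion gave a log2 change of 0.43 at 0 h (adjusted p = 2.7e-05), under the 2-fold threshold, and of 0.16 at 16 h (adjusted p = 0.055). Among the genes tested, the level of ETS1 per kb lay above 73.2% of genes in control cells at 0 h and above 93.7% at 16 h.

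ETS2, the closest relative of ETS1 in this family and a target of MAP kinase phosphorylation, went the other way in both comparisons. It lies on the plus strand at chr21:40177755-40196878 and its values are those of NM_005239. ETS2 was at 1623 and 1541 normalized reads in the control libraries at 0 h and at 934 and 883 at 16 h. The mutp53-depleted libraries were at 774 and 743 at 0 h and at 485 and 495 at 16 h. The 4 groups did not overlap, with control cells at 0 h the highest and mutp53-depleted cells at 16 h the lowest. ETS2 fell by 1.06 on the log2 scale with depletion at 0 h (standard error 0.08, limma adjusted p = 2.0e-09), a 2.09-fold lower mean. At 16 h the change was −0.89 (adjusted p = 1.8e-08), and with TNF-α it was −0.80 in control cells (adjusted p = 2.1e-07) and −0.63 in mutp53-depleted cells (adjusted p = 5.2e-06), all under the 2-fold threshold. As a ratio of levels per kb, ETS1 over ETS2 was 0.475 and 0.486 in control cells at 0 h, 3.18 and 3.26 in control cells at 16 h, and 1.30 and 1.39 before and 6.57 and 6.76 after TNF-α in mutp53-depleted cells. The order of these closely related genes was thus reversed in all libraries but those of untreated control cells.

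**Figure D2:**
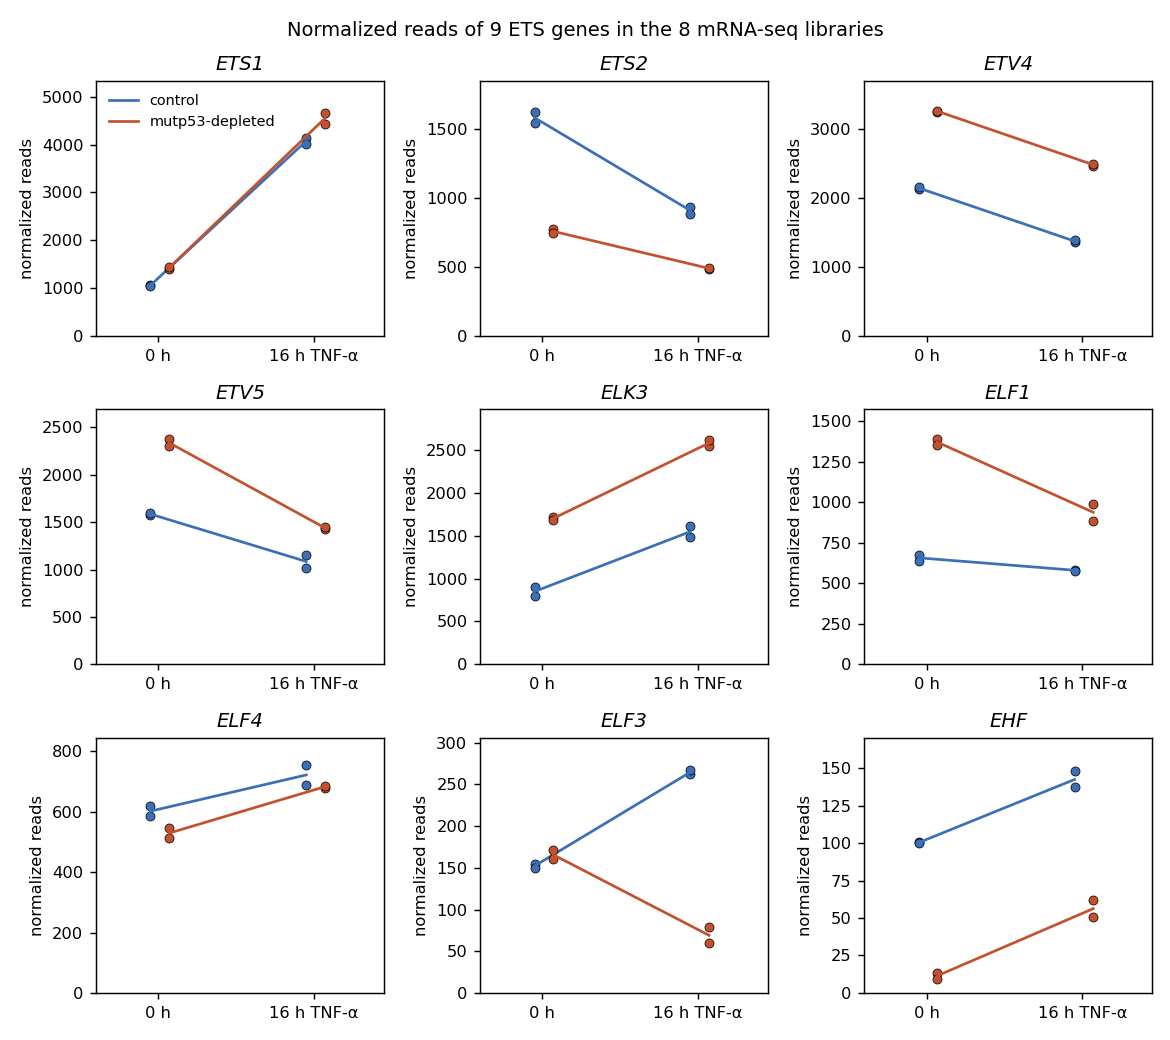
Each panel plots the normalized reads of 1 member (vertical axis, from 0) at 0 h and 16 h of TNF-α, with a point for each library and a line through the group means, control in blue and mutp53-depleted in red. ETS1 climbs in both lines to between 4020 and 4665, and ELF3 climbs in control cells to 262 and 267 and drops in mutp53-depleted cells to 78.8 and 59.2.

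ERG, an endothelial transcription factor best known as a fusion partner in prostate cancer, was close to absent. It lies on the minus strand at chr21:39751950-40032591 (NM_001243428) and had 4 reads over the 8 libraries, at most 1 in any library. In control cells ERG was at 0.73 and 1.51 normalized reads at 0 h and at 0 in both libraries at 16 h. The mutp53-depleted libraries were at 0.67 and 0 at 0 h and at 0 and 1.23 at 16 h. These values are under the limit of 3 reads, between 2.01 and 4.54 normalized reads, that a count of 0 allows, which covers counting error only. ERG was therefore not tested, and no difference could be detected at this depth.

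Around ETS2 and ERG, much of chromosome 21 was lower in mutp53-depleted cells. Among the 25 tested genes on either side of ETS2 the median log2 change with depletion was −0.52 at 0 h, with 11 of the 50 genes called lower, 1 called higher and 39 below 0. At 16 h the median was −0.45, with 15 called lower and 1 higher. Over all genes tested 9.55% were called lower and 5.89% higher at 0 h, and 10.2% and 5.03% at 16 h. A window of the same size around ERG gave medians of −0.54 and −0.47, and all 149 tested genes of chromosome 21 gave −0.54 and −0.51. Of these 149, 34 were called lower and 3 higher at 0 h, and 38 lower and 3 higher at 16 h. Of the 50 neighbours, 13 had a change at 0 h further below 0 than that of ETS2. The 5 tested genes on either side of ETS2 had changes at 0 h of −0.42 for PIGP, −1.19 for TTC3, 0.32 for DSCR9, −0.68 for DSCR3 and −0.51 for DYRK1A before it, and of −0.37 for PSMG1, −0.29 for BRWD1, 0.41 for BRWD1-IT2, −0.52 for HMGN1 and −1.22 for WRB after it, and TTC3 and WRB were called. With the neighbours' median taken off, the depletion change of ETS2 at 0 h was −0.54 (limma adjusted p = 1.1e-05) and no longer reached 2-fold. In response to TNF-α the neighbours' median was −0.14 in the control line and −0.12 in the mutp53-depleted line. A change further below 0 than that of ETS2 was found there for 6 of the 50 neighbours in control cells and for 10 in mutp53-depleted cells.

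**Figure D3:**
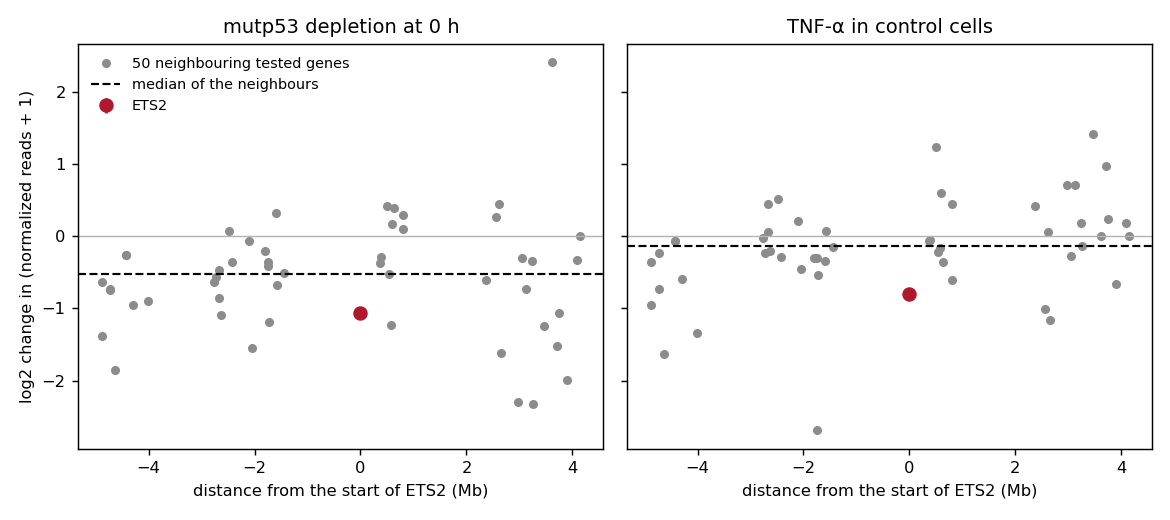
Grey points give the log2 change in (normalized reads + 1) of the 50 tested genes nearest to ETS2 against the distance of their start from that of ETS2 in Mb, the dashed line their median, and the red point ETS2 with its standard error. With depletion at 0 h (left) the median is −0.52 and ETS2 is at −1.06, and with TNF-α in control cells (right) the median is −0.14 and ETS2 is at −0.80.

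ELF3, an epithelium-restricted factor also known as ESE-1, responded to TNF-α in opposite directions in the lines. It lies on the plus strand at chr1:201979690-201986315 (NM_001114309). Control cells had 155 and 150 normalized reads of ELF3 at 0 h and 262 and 267 at 16 h. In mutp53-depleted cells the values were 171 and 160 at 0 h and 78.8 and 59.2 at 16 h. The lines lay close together at 0 h, and at 16 h the control libraries were the highest and the mutp53-depleted libraries the lowest of the 8. The change with TNF-α was 0.79 on the log2 scale in control cells (limma adjusted p = 6.8e-04), a ratio of 1.74 that is under the threshold, and ELF3 fell by 1.26 in mutp53-depleted cells (adjusted p = 5.6e-06), a 2.40-fold lower mean. The difference between the responses was −2.06 (standard error 0.22, adjusted p = 2.8e-05). Depletion gave 0.12 at 0 h (standard error 0.15, adjusted p = 0.53) and −1.94 at 16 h (adjusted p = 7.2e-09), where the mean was 3.84-fold lower. The change at 16 h was called under all 18 alternative settings, between −2.14 and −1.74, and the neighbours of ELF3 had a median of −0.14.

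EHF, the related epithelial factor ESE-3, fell the most of the members with depletion at 0 h and rose with TNF-α in mutp53-depleted cells. It lies on the plus strand at chr11:34642588-34684834 (NM_012153). EHF was at 101 and 99.99 normalized reads in the control libraries at 0 h and at 137 and 148 at 16 h. In mutp53-depleted cells it was at 13.4 and 9.60 at 0 h, from 20 and 7 reads, and at 62.0 and 50.6 at 16 h. All control libraries were above all mutp53-depleted libraries, and the untreated mutp53-depleted libraries were the lowest. The depletion change was −3.04 on the log2 scale at 0 h (standard error 0.23, limma adjusted p = 4.1e-09), with an 8.73-fold lower mean, and −1.33 at 16 h (adjusted p = 8.7e-05). TNF-α gave 0.50 in control cells (adjusted p = 0.12), while EHF rose by 2.21 in mutp53-depleted cells (adjusted p = 8.8e-07), a ratio of 4.90. The difference between the responses was 1.71 (standard error 0.32, adjusted p = 0.0052), opposite in sign to that of ELF3, and after this rise the mean was still 2.53-fold lower than in control cells. The medians of the neighbouring genes were 0.01 at 0 h and −0.12 at 16 h.

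The epithelial markers did not all change in the same direction, nor always in that of ELF3 and EHF. The summed value of the 6 markers was 65696 to 70163 normalized reads in control cells at 0 h, 56167 to 56269 at 16 h, and 52440 to 52470 and then 42721 to 43889 in mutp53-depleted cells. EPCAM was called lower with depletion at both times, with log2 changes of −1.29 and −1.06, and the other 5 markers were not. KRT8 and KRT18, keratins of simple epithelia, made up 69.5% to 78.9% of the sum and had log2 changes of −0.31 and −0.43 (KRT8) and −0.53 and −0.53 (KRT18) with depletion at 0 h and 16 h. KRT19 differed the other way, by 0.26 at both times (limma adjusted p = 0.0030 and 0.0035), as did CDX2, by 0.12 and 0.21 (adjusted p = 0.21 and 0.036), all under the 2-fold threshold. With TNF-α KRT19 had log2 changes of 0.22 in each line (limma adjusted p = 0.019 and 0.021). In control and mutp53-depleted cells KRT8 changed by −0.32 and −0.44 (adjusted p = 0.0036 and 2.1e-04) and KRT18 by −0.36 and −0.37 (adjusted p = 0.0012 and 0.0011). EPCAM changed by −0.19 and 0.04 (adjusted p = 0.076 and 0.79), and these were all under the 2-fold threshold. CDH1 had log2 changes of −0.81 and −0.45 with depletion at 0 h and 16 h (limma adjusted p = 5.5e-05 and 0.0093), under the 2-fold threshold. With TNF-α CDH1 was called lower in both lines (−2.51 and −2.15) and CDX2 in control cells (−1.07). The change of CDX2 in mutp53-depleted cells was −0.98 (limma adjusted p = 4.8e-08), just under the threshold. Its responses in the lines differed by 0.09 (adjusted p = 0.81). Fibroblast markers summed to 38.5 to 39.4 in control cells and 158 to 177 in mutp53-depleted cells at 0 h, and to 28.5 to 31.9 and 56.2 to 59.2 at 16 h, with COL1A2, LUM and DCN at 3 reads or fewer in every library. The other 2, PDGFRB and COL1A1, were called higher with depletion at 0 h (3.53 and 1.51) and not at 16 h (0.71 and 0.93), and PDGFRB was called lower with TNF-α in mutp53-depleted cells (−2.96). Endothelial markers summed to at most 7.26 in control cells and to 17.6 to 28.8 in mutp53-depleted cells. Of these VWF was called higher with depletion at both times (1.84 and 2.62), with PECAM1 at 3 reads or fewer in every library. Leukocyte markers summed to at most 37.7 in any library, with PTPRC at 3 reads or fewer. ITGAM was called higher with TNF-α in both lines, with at most 3 reads in the libraries at 0 h and 8 to 33 at 16 h. CD14 was called lower with TNF-α in control cells (−1.21), and its change in mutp53-depleted cells was −1.09 (limma adjusted p = 0.059). The part of these shifts in the values of ELF3 and EHF was not tested, and in bulk RNA fewer cells of a type and less RNA per cell cannot be told apart.

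ELF1, a broadly expressed activator with known roles in lymphoid cells, was higher in mutp53-depleted cells at both times. The gene (NM_172373) is on the minus strand at chr13:41506055-41593508. ELF1 was at 675 and 639 normalized reads in the control libraries at 0 h and at 585 and 576 at 16 h. After depletion it was at 1388 and 1352 at 0 h and at 989 and 886 at 16 h. All 4 mutp53-depleted libraries were above all 4 control libraries. ELF1 rose by 1.06 on the log2 scale with depletion at 0 h (standard error 0.08, limma adjusted p = 3.5e-09) and its change at 16 h was 0.69 (adjusted p = 8.4e-07), under the threshold. The neighbours' median at 0 h was 0.18, and with it taken off the change was 0.88 and was no longer called. With TNF-α the change was −0.18 in control cells (adjusted p = 0.11) and −0.55 in mutp53-depleted cells (adjusted p = 4.1e-05), and the difference of −0.37 did not pass the test (adjusted p = 0.094).

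ELF4, an activator related to ELF1 with roles in innate immunity, was the steadiest of the expressed members. Its position is chrX:129198895-129244475 on the minus strand (NM_001421). The control libraries were at 619 and 585 normalized reads at 0 h and at 688 and 755 at 16 h. The mutp53-depleted libraries were at 513 and 546 at 0 h and at 680 and 686 at 16 h. Libraries at 16 h were above those at 0 h in either line, and the lines lay close together at both times. The response to TNF-α was 0.26 on the log2 scale in control cells (limma adjusted p = 0.027) and 0.37 in mutp53-depleted cells (adjusted p = 0.0029), and depletion gave −0.19 (standard error 0.08, adjusted p = 0.071) and −0.08 (adjusted p = 0.46). No call was made for ELF4 in any comparison.

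ELK3, a ternary complex factor that binds DNA with serum response factor and represses transcription until it is phosphorylated, was higher both with depletion and with TNF-α. The model counted, NM_005230, spans chr12:96588160-96663613 on the plus strand. ELK3 was at 800.5 and 898 normalized reads in the control libraries at 0 h and at 1609 and 1484 at 16 h. In mutp53-depleted cells it was at 1720 and 1680 at 0 h and at 2549 and 2608 at 16 h. The highest libraries were those with both depletion and TNF-α and the lowest those with neither. Depletion at 0 h gave a log2 change of 1.00 (standard error 0.07, limma adjusted p = 3.5e-09), which is at the 2-fold threshold and was called under 10 of 18 alternative settings. At 16 h the depletion change was 0.74 (adjusted p = 1.8e-07), and TNF-α gave 0.86 in control cells (adjusted p = 6.1e-08) and 0.60 in mutp53-depleted cells (adjusted p = 7.9e-06). The neighbours of ELK3 had medians of 0.52 and 0.44 with depletion, and with these taken off the change at 0 h was 0.48.

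ETV4 and ETV5, members of the PEA3 group that lies downstream of growth factor and MAP kinase signalling, were higher with depletion and lower with TNF-α, in each case by less than 2-fold. ETV4, on the minus strand at chr17:41605211-41623800 (NM_001079675), was at 2129 and 2159 normalized reads in the control libraries at 0 h, 1357 and 1391 at 16 h, and at 3250 and 3263 and then 2464 and 2499 in mutp53-depleted cells. ETV5, on the minus strand at chr3:185764106-185826901 (NM_004454), was at 1572 and 1598, 1018 and 1152, 2375 and 2298, and 1424 and 1454 normalized reads in the same order. For both genes the mutp53-depleted libraries at 0 h were the highest and the control libraries at 16 h the lowest of the 8. The depletion changes of ETV4 were 0.60 at 0 h (limma adjusted p = 3.6e-07) and 0.85 at 16 h (adjusted p = 4.3e-09), beside neighbours' medians of 0.53 and 0.51. Those of ETV5 were 0.56 (adjusted p = 4.1e-06) and 0.41 (adjusted p = 1.3e-04), beside neighbours' medians of 0.69 and 0.68, so that ETV5 lay below its neighbours. With TNF-α, ETV4 changed by −0.64 in control cells (adjusted p = 4.7e-07) and −0.39 in mutp53-depleted cells (adjusted p = 1.6e-04). ETV5 changed by −0.55 (adjusted p = 1.4e-05) and −0.70 (adjusted p = 9.8e-07), with neighbours' medians of 0.01 and −0.01.

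With depletion of mutp53 at 0 h, 4 of the 9 members tested were called, ELF1 and ELK3 higher and ETS2 and EHF lower. Over all genes tested 15.4% were called, 5.89% higher and 9.55% lower. The median log2 change was 0.43 over the members and 0.03 over all genes. Removal of the neighbours' median from the mutp53-depleted libraries left 1 member called, EHF. Of all 14800 genes tested, 1765 were called after that removal and 2285 before it. At 16 h, 2 of the 9 members were called, ELF3 and EHF, both lower, against 15.2% of all genes, 5.03% higher and 10.2% lower. An adjusted p under 0.05 at any fold was reached by 7 of the 9 members at each time, against 52.5% of all genes at 0 h and 51.3% at 16 h. The libraries of the lines did not overlap for any of the 9 members at either time, as for 77.4% of all genes at 0 h and 74.5% at 16 h.

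With TNF-α, ETS1 was the member called in both lines. In control cells 1 of 9, ETS1, was called, against 7.24% of all genes, 2.97% higher and 4.27% lower. In mutp53-depleted cells 3 of 9 were called, ETS1 and EHF higher and ELF3 lower, against 6.36% of all genes, 1.86% higher and 4.50% lower. Without the fold threshold, 7 of the 9 passed the adjusted p in control cells and all 9 in mutp53-depleted cells, against 26.3% and 26.7% of all genes. The libraries at 0 h and 16 h did not overlap for any of the 9 in either line, as for 59.5% of all genes in the control line and 65.2% in the mutp53-depleted line. The median log2 change of the members was 0.26 in the control line and −0.39 in the mutp53-depleted line, and that of all genes −0.05 and −0.06. The difference between the responses of the lines was called, by its adjusted p alone, for 2 of the 9 members, ELF3 and EHF, in opposite directions, against 2.86% of all genes, 0.655% higher and 2.21% lower.

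**Figure D4:**
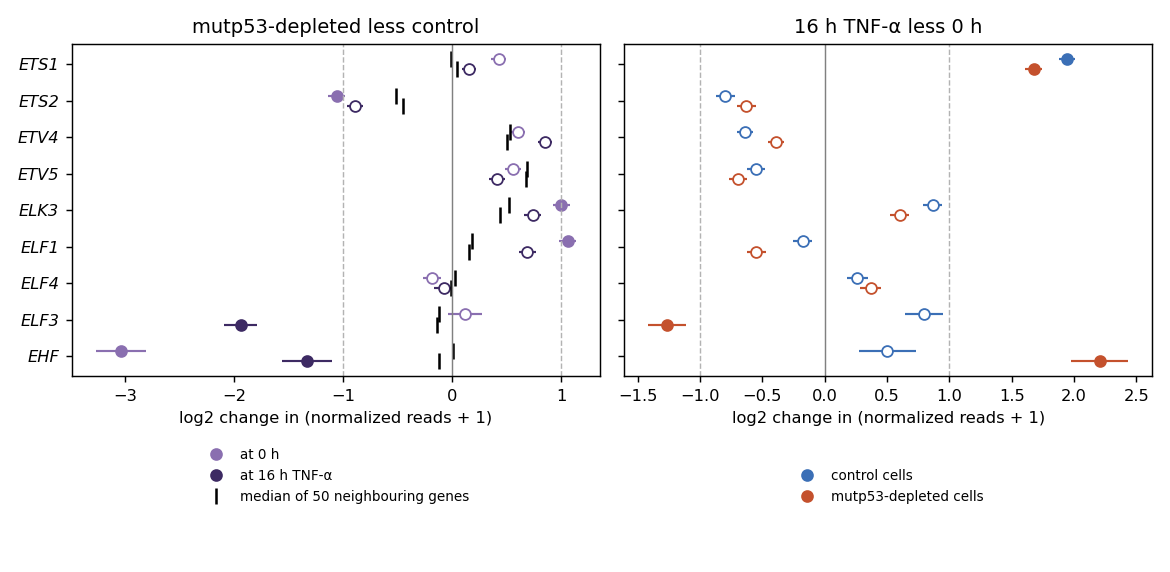
Log2 changes in (normalized reads + 1) are plotted for the 9 tested members with depletion of mutp53 (left, at 0 h and at 16 h) and with TNF-α (right, in control and mutp53-depleted cells). Bars are standard errors, filled points were called, dashed lines mark 2-fold and black ticks give the median of the 50 neighbouring genes, which for ETS2 lies at −0.52 and for ETV5 at 0.69 with depletion at 0 h.

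Of the other 18 ETS genes, 12 were tested, and FEV, ELF5, ETV3L, SPDEF, SPI1 and SPIC were too low, SPIC with no read. Depletion called 2 of the 12 at 0 h, both higher, and 2 at 16 h, 1 in each direction, against 15.4% and 15.2% of all genes. ETV1, the remaining member of the PEA3 group, rose with depletion, from 109 and 103 normalized reads to 228 and 207 at 0 h and from 26.1 and 42.7 to 87.2 and 83.9 at 16 h. Its log2 changes were 1.03 (limma adjusted p = 4.0e-04) and 1.33 (adjusted p = 3.0e-05), whereas its neighbours had medians of −0.77 and −0.80. ETV1 also fell with TNF-α, by 1.64 in control cells (adjusted p = 7.6e-06) and by 1.33 in mutp53-depleted cells (adjusted p = 8.7e-05). It was the only one of the 12 called in either, against 7.24% and 6.36% of all genes. The 3 PEA3 genes ETV1, ETV4 and ETV5 thus had the same signs in these 4 comparisons. With its neighbours' median taken off, however, ETV5 had the opposite sign with depletion (−0.13 and −0.27). At 0 h neither that value of ETV5 (limma adjusted p = 0.17) nor that of ETV4, 0.08 (adjusted p = 0.37), passed the test. At 16 h the value of ETV4 with its neighbours' median taken off was 0.35. ETV6, a repressor, rose by 1.06 with depletion at 0 h (adjusted p = 1.2e-08), beside a neighbours' median of 1.05. FLI1, the closest relative of ERG, was lower with depletion at 16 h (−2.09, adjusted p = 0.024), at 0.84 and 3.70 normalized reads against 7.73 and 17.1, a call that rests on 1 and 3 reads in the mutp53-depleted libraries.

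Partners and regulators of ETS factors were read from a list of 18 genes, all tested. It holds the GABPA partners GABPB1 and GABPB2, serum response factor, the coactivators CREBBP and EP300, the ubiquitin ligase subunits RFWD2 and DET1 that act on ETS proteins, the ETV4 and ETV5 repressor CIC with ATXN1L, the kinase MAPK3, feedback inhibitors of MAP kinase signalling, the ETS1 partner RUNX1 and the inhibitors ID1 and ID2. Depletion called 2 of the 18 at 0 h, 1 higher and 1 lower, and 1 at 16 h, higher, against 15.4% and 15.2% of all genes. DUSP6, a MAP kinase phosphatase that is itself induced by the pathway it inhibits, rose from 2583 and 2572 to 7832 and 8034 normalized reads at 0 h and from 2439 and 2502 to 6873 and 6688 at 16 h. Its log2 changes were 1.62 (limma adjusted p = 1.5e-12) and 1.46 (adjusted p = 5.0e-12), beside neighbours' medians of 0.51 and 0.54. ID1 fell by 1.08 at 0 h (adjusted p = 0.0065), beside a neighbours' median of −0.25. It went from 34.8 and 60.6 to 19.4 and 23.3 normalized reads, and its change at 16 h was 0.02 (adjusted p = 0.96). The other feedback inhibitors gave −0.44 for SPRY2, 0.07 for SPRY4, 0.31 for SPRED1 and 0.61 for SPRED2 at 0 h and were not called.

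TNF-α called 2 of these 18 in control cells, RUNX1 and ID2, and 1 in mutp53-depleted cells, ID2, all lower, against 7.24% and 6.36% of all genes. RUNX1, on chromosome 21 in the same window as ETS2, was at 1488 and 1442 normalized reads in the control libraries at 0 h and at 616 and 543 at 16 h, and at 797 and 769 and then 545 and 596 in mutp53-depleted cells. Untreated control cells stood apart as the highest. RUNX1 fell by 1.34 with TNF-α in control cells (limma adjusted p = 7.9e-10), and its change in mutp53-depleted cells was −0.46 (adjusted p = 4.3e-04), with a called difference of 0.88 (adjusted p = 2.4e-04). ID2 fell by 1.63 (adjusted p = 3.3e-10) and 1.58 (adjusted p = 8.6e-10). ETS1 and its partner RUNX1 thus moved in opposite directions with TNF-α in both lines, although the change of RUNX1 in mutp53-depleted cells was under the 2-fold threshold.

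The genes whose enhancers the study assayed for ETS2 both rose with TNF-α. CYP24A1, the vitamin D 24-hydroxylase, rose from 50.1 and 42.4 to 189 and 222 normalized reads in control cells and from 29.5 and 24.7 to 78.0 and 45.7 in mutp53-depleted cells. Its log2 changes were 2.13 (limma adjusted p = 2.7e-06) and 1.12 (adjusted p = 0.0023). Depletion gave −0.75 at 0 h (adjusted p = 0.016), under the 2-fold threshold, and −1.76 at 16 h (adjusted p = 9.2e-06). CPA4, a carboxypeptidase, had no read in untreated control cells and was at 55.1 and 28.4 at 16 h, and it went from 0.67 and 1.37 to 31.0 and 14.8 in mutp53-depleted cells, both called (adjusted p = 1.0e-06 and 1.5e-04). CPA4 was not called with depletion, with log2 changes of 0.99 at 0 h (limma adjusted p = 0.16) and −0.85 at 16 h (adjusted p = 0.23). The difference between the responses to TNF-α did not pass the test for CYP24A1 (−1.01, adjusted p = 0.16) or for CPA4 (−1.85, adjusted p = 0.31).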

How the data were processed

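Of the series' 17 samples, the 4 of mRNA-seq were used, which make up the 8 columns of 1 table, and the others were not used here. The authors mapped single-end reads of poly(A)-selected, strand-specific libraries with STAR, counted them by strand on the exons of RefSeq genes with HOMER and deposited the signal as normalized reads, in which each library was multiplied by 1 factor to give all libraries the same total. The table's header and coordinates give hg19, whereas the methods and labels name hg38. The log2 fold changes and p-values that the authors deposited with these values are their own edgeR comparisons and were not used. Replicate letters come only from the column names.

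Whole reads were recovered from all values with the step size of their library (100% in each, tolerance 0.02 normalized reads or a relative 0.0001). For the highest values the relative tolerance is wider than the step, so these pass in any case. R 4.3.3 with limma 3.58.1 was used to test log2(value + 1) (lmFit, contrasts.fit, eBayes with trend), in 1 model of 4 group means. Recovered reads were tested as an alternative with edgeR 4.0.16 (TMM factors 0.97 to 1.03) and DESeq2 1.42.0. The neighbours of a gene were the 25 tested genes on either side. The letters were not used to pair the libraries in the main test. Deviations of same-lettered libraries correlated between −0.0192 and 0.074, which cannot show whether those libraries were prepared together. Every member is named, and of the lists of other ETS genes and of partners and regulators, the genes called in any comparison and the other ETS genes too low to test. Cell type markers are named beside the results of ELF3 and EHF. The MAP kinase feedback inhibitors and marker genes named beside them were chosen after their values were seen. Some genes are not reported here. The members and lists were chosen with earlier results of these data known. The procedure was tested on simulated data. Plots were made with Python 3.11.15 and matplotlib 3.10.9.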

Additional observations from a re-analysis of the deposited data

Results flagged for a closer look

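The response to TNF-α differed between the lines by limma's interaction test for 4 of the genes described. Values are the log2 response in mutp53-depleted cells less that in control cells. ELF3 had −2.06 (adjusted p = 2.8e-05), with both control libraries higher and both mutp53-depleted libraries lower at 16 h than at 0 h. EHF had 1.71 (adjusted p = 0.0052), with higher libraries at 16 h in both lines. RUNX1 had 0.88 (adjusted p = 2.4e-04), with lower libraries at 16 h in both lines. PDGFRB, a fibroblast marker, had −2.81 (adjusted p = 0.0099), with 104 and 51 reads in the mutp53-depleted libraries at 0 h and 9 or fewer in each of the others. Groups of 2 libraries are too small to look for a single library apart from its group.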

How the results depend on the processing

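Each of 45 log2 changes (9 members, 5 comparisons) was recomputed under up to 18 alternatives, which gave 792 values, of which 782 kept their call and 780 kept both call and sign. The number of members called with depletion at 0 h went from 4 to 1 with the neighbours' median removed, and to 3 with rescaling by the median ratio, a pseudocount of 5, edgeR's quasi-likelihood and exact tests, DESeq2, and without replicate A of control or of mutp53-depleted cells at 0 h (3 to 4 over the 8 libraries left out in turn). ELK3 was lost in each of these (between 0.48 and 0.999 on the log2 scale), and ETS2 (−0.54) and ELF1 (0.88) were lost with the neighbours' median removed. The counts of members called in the other comparisons, 2, 1, 3 and 2, did not move under any alternative run. No called change was reversed, and ETV5 changed sign, uncalled, with the neighbours' median removed (−0.13 and −0.27 with depletion at 0 h and 16 h).

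With the replicate letter as a block, the counts of members called were 4, 2, 1, 3 and 2, and no call of a member changed. Over all genes, the difference between the responses was called for 424 genes in the main test. With the letter as a block it was called for 559, of which 153 were higher and 406 lower. It was called for 293 by DESeq2, for 278 without replicate A of control cells at 0 h, for 233 and 208 without replicate A or B of mutp53-depleted cells at 0 h and for 265 without replicate B of those at 16 h. With the neighbours' median removed it was called for 470, of which 167 were higher and 303 lower, compared with 97 and 327. The cause of these changes was not tested. The edgeR exact test gives no value for that difference, and removal of the neighbours' median does not apply to TNF-α in control cells. EHF in mutp53-depleted cells at 0 h (20 and 7 reads), FLI1 and ERG are limited by depth.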
